A study of Mus musculus with 8 samples.

Results

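The genes described here are 34 chaperones, folding enzymes and stress regulators, chosen by name as genes of the unfolded protein response and the heat shock response, with earlier results of these data known, out of 22432 genes in the expression table. All 34 were present in the table and all passed the filter on low values, so no member was lost. Of these, 21 act in or for the endoplasmic reticulum (ER), 10 act in the cytosol, 2 form the mitochondrial chaperonin and 1 is the transcription factor Hsf1. RNA was sequenced from mouse regulatory T cells (Treg cells, which express Foxp3 and hold immune responses in check) of C57Bl/6 background, with 2 libraries for each of 4 genotypes. The WT group carried Foxp3-CRE-YFP alone, a Cre recombinase and yellow fluorescent reporter made where the Foxp3 gene is active. RelB-KO cells carried in addition RelB F/F, Nfkb2-KO cells nfkb2 F/F, and DKO cells both, where F/F marks an allele with sites that Cre can cut on each chromosome. All groups shared the Cre and the same culture: YFP+ cells sorted out of spleen and lymph nodes, which had been pooled, were kept 16 h on anti-CD3 (5 µg/ml in the coating) with anti-CD28 (1 µg/ml), agonist anti-OX40 (2 µg/ml) and IL-2 (10 ng/ml). No unstimulated group and no group given an inducer of ER stress or heat was analysed here. The labels give neither the age of the mice nor whether replicates came from separate animals, so the spread behind each p-value is that among these libraries and may be technical. The exception is WT, whose 2 libraries differed in sex-linked genes, as given below.

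The ER folds proteins that are to be secreted or placed in membranes. When unfolded protein accumulates there, the sensors IRE1 (the product of Ern1), ATF6 and PERK set off the unfolded protein response: IRE1 splices the Xbp1 mRNA, ATF6 is cut to release a transcription factor, and both act on genes for ER chaperones and for the degradation of misfolded ER proteins. In the cytosol, the factor HSF1 acts on chaperone genes of the Hsp70, Hsp90 and Hsp40 families when proteins unfold. Activated lymphocytes enlarge and make protein at a high rate, and chaperones of both compartments are abundant in them. RelB and p52, the latter cut from the Nfkb2 product p100, are the transcription factor subunits of the alternative NF-kB pathway that the series removed, and p100 also retains RelB in the cytoplasm.

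Promoter sequences are shown first, because some of the ER genes and some of the cytosolic and mitochondrial genes carry the letters of different stress responses. The stretches below are the 250 bases before the RefSeq start of transcription on build GRCm38.p6, on the strand of the gene. Capitals in the first 5 mark the ER stress element, searched on both strands as CCAAT, 9 bases of any kind and CCACG (read on the other strand as CGTGG, 9 bases and ATTGG). Capitals in Hspe1 mark overlapping runs of the heat shock element in 3 alternating units, which are GAA, TTC and GAA (or TTC, GAA and TTC) with 2 bases of any kind between them. Calr, Pdia6, Hsp90b1 and Hspa5 were picked, after their values were known, as ER chaperone genes with higher mean levels in Nfkb2-KO cells. Of these, only Calr passed the test below, and not in every model. Canx and Dnajc3, which also hold the element and had smaller differences, are not shown. Syvn1 is shown as a gene with the same element and no such difference, and Hspe1 as the heat shock example.
Calr: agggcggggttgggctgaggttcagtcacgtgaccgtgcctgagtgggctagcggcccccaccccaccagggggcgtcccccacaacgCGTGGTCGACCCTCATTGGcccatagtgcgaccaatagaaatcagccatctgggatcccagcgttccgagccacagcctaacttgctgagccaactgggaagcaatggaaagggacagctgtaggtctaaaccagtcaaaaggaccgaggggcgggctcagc
Pdia6: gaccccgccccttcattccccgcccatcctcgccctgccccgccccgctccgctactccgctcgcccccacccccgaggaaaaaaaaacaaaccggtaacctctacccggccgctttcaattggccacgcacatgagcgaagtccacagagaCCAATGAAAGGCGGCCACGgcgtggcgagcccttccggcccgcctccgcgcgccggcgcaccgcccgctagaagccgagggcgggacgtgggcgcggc
Hsp90b1: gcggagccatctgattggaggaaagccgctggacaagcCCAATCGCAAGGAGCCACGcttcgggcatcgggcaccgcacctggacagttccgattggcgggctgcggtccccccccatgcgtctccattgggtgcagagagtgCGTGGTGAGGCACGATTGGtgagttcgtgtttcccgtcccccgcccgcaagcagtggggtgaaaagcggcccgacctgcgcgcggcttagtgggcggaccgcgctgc
Hspa5: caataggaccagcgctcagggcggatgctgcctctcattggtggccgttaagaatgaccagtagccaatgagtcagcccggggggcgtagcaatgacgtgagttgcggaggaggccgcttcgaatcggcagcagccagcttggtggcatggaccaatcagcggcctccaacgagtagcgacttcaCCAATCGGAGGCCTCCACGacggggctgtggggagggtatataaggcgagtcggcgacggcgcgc
Syvn1: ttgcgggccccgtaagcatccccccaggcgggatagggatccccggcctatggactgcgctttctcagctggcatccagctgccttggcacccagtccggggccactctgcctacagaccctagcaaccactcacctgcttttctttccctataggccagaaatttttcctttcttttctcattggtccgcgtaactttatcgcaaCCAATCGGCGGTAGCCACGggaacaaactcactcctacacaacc
Hspe1: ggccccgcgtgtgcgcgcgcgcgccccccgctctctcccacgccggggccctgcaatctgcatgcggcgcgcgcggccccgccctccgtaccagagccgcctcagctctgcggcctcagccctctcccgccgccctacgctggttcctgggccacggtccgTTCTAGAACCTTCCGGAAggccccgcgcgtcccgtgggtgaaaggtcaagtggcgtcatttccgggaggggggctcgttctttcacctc

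The Calr stretch is chr8:84846932-84847181 (minus strand), with its element starting 162 bases before the start of transcription. The Pdia6 stretch is chr12:17266339-17266588 (plus strand), with the element 98 bases before the start. Hsp90b1, chr10:86705445-86705694 (minus strand), holds 2 elements in opposite orientation, 212 and 107 bases before the start. In Hspa5, chr2:34771840-34772089 (plus strand), the element lies 65 bases before the start, and in Syvn1, chr19:6046326-6046575 (plus strand), 44 bases before it. The Hspe1 stretch is chr1:55087898-55088147 (plus strand), whose first capital lies 89 bases before the start. Hspe1 and Hspd1 are transcribed away from each other from this region, so the same run also lies in the Hspd1 promoter.

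Promoters of 300 bases (250 before to 50 after the start) were in the RefSeq table for 27 of the 34 members. The full ER stress element was present in 8 of 18 ER members (44.4%), namely Calr, Canx, Creld2, Dnajc3, Hsp90b1, Hspa5, Pdia6 and Syvn1. It was present in 37 of 27025 genes of the table (0.137%) and in 0 of 7 cytosolic members. The motif CCACG alone, which the full element contains, was in 88.9% of the ER members, 57.1% of the cytosolic members, both mitochondrial members, 50.8% of the genes tested here and 35.5% of all genes. The core of the UPR element, TGACGTGG, was in 0 of the 18 ER members and 0.714% of all genes. The heat shock element with 2 units, GAANNTTC or TTCNNGAA, was in 5 of 7 cytosolic members (71.4%), in both mitochondrial members and in 0 of 18 ER members, against 17.0% of all genes and 14.1% of those tested. The form with 3 units, which contains the shorter one, was in Hsph1, Hspd1 and Hspe1, and in 0.662% of all genes. These are matches of letters and not measured binding sites. The members were chosen by name as genes of these 2 responses, so their shares are no independent test of the elements. For Hsp90ab1, Hsp90aa1, Hspa8, Manf, Hyou1, Atf6 and Hsf1 no promoter was printed or searched.

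By design, about 30 M reads were made per sample. The deposited values are log2 expression values that the file header calls batch-corrected log2 RPKM, but their un-logged sums of 18.2 to 19.7 M per library are not those of RPKM, so the depth per value is unknown and counting error cannot be given. Relb was at 6.35 to 7.08 in the RelB-KO and DKO libraries and at 10.49 to 10.84 in the others, and Nfkb2 was at 8.75 to 9.85 in the Nfkb2-KO and DKO libraries and at 12.31 to 12.80 in the others, as the labels say. The remaining Nfkb2 RNA was higher in DKO (9.29 and 9.85) than in Nfkb2-KO (8.75 and 8.79). That difference was 0.80 (limma adjusted p 0.0379 with the replicate block described below, 0.184 without). Its part in comparisons of DKO with Nfkb2-KO was not tested. Foxp3 lay between 13.95 and 14.28 in all 8 libraries. The log2 of the summed un-logged levels of 5 Treg markers, Foxp3 among them, was 17.43 and 17.47 in DKO. It was 17.16 to 17.36 in the other libraries. For 6 T cell markers the sum was 15.52 to 15.75. For 8 myeloid and dendritic cell markers it was 6.42 to 7.02, highest in RelB-KO replicate 1. The part of these markers in the member differences was not tested. The library labelled WT replicate 1 stood apart in sex-linked genes, with Xist at 8.17 (14.61 to 15.13 in the other 7) and Ddx3y at 11.60 (4.25 to 4.35). The WT libraries were thus not repeats of the same sample, and the WT spread includes this difference. Libraries also differed by replicate number in the same way in every genotype, with correlations of 0.81 to 0.89 across genes between the genotypes' replicate differences. Same-numbered libraries were therefore treated as pairs, and values from the model with replicate number as a block are given beside those from the model without it. Results against WT include WT replicate 1. Most medians and member differences are also given within replicate 2 alone, which does without it. Where libraries of different groups are said to lie apart or overlap, the share of all genes that did so was not counted. With 2 libraries per group, such a separation alone is no test.

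Expression of the members spanned a wide range. For a ranking, levels were divided by the length of all annotated exons of a gene. That takes the deposited values as not yet divided by length, which RPKM would be, so the order rests on this assumption. As deposited, Hspa8 had a mean of 14.61 and Calr of 14.44, the reverse of their order below. Divided by exonic length, the mean log2 level per kilobase was 14.80 for Hsp90ab1, a constitutive cytosolic Hsp90, 12.91 for the ER lectin chaperone Calr and 12.50 for the constitutive Hsp70 gene Hspa8. Hspa5 (BiP, the ER Hsp70) and the disulfide isomerase Pdia3 followed on this scale at 12.19 and 12.16. At the low end were the stress-inducible Hsp70 genes Hspa1a and Hspa1b, at 2.61 and 3.88 per kilobase, and the sensor Ern1 at 5.58. The place of Hspa8 is not settled, since its replicates differed by 1.43 on average, more than its distance from Calr, Hspa5 or Pdia3. The inducible Hsp70 pair had the lowest levels of the set.

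**Figure D1:**
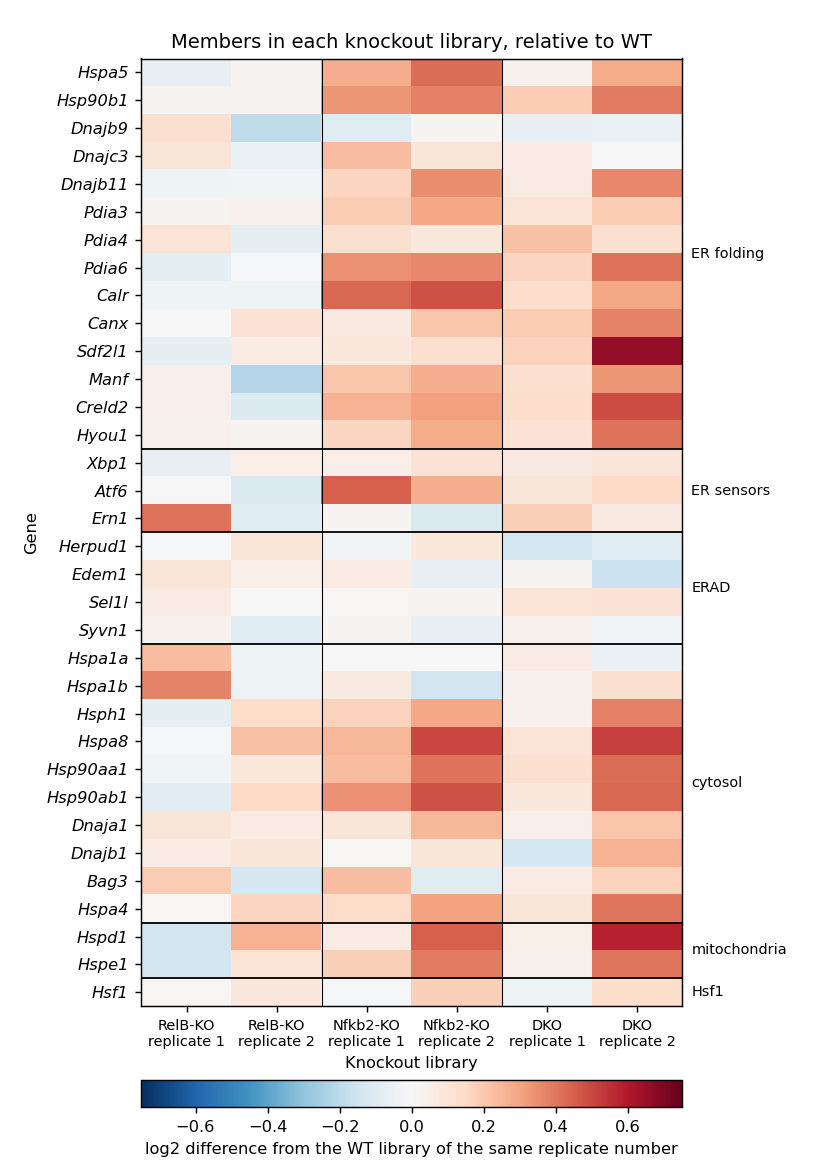
Difference of each member (rows, grouped by role) in each knockout library from the WT library of the same replicate number, in log2 units, as colour from blue (lower) to red (higher). The ER folding rows are red in both Nfkb2-KO columns for 13 of 14 genes, pale in most RelB-KO cells, and in DKO have a median of 0.12 in replicate 1 and 0.35 in replicate 2, with Pdia4 and Dnajc3 less red in replicate 2.

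Of the members, Calr alone passed the test in Nfkb2-KO against WT, and in the model with the replicate block only. The other ER folding genes mostly had small positive differences that did not pass. Against WT, 29 of the 34 members had a positive log2 difference and the median was 0.19, where the median over all 13797 genes tested was 0.00. In each pair of same-numbered libraries, 25 of 34 members (73.5%) were higher in Nfkb2-KO, beside 34.4% of all genes tested. Here and below, all genes tested include weak genes, some with nearly flat values, while most members are abundant. No background of genes at matched levels was made. Under quantile normalization the median of the ER members was 0.12, against 0.16 as deposited, so a dependence on level was not set aside. In the model without the replicate block 0 of 34 members passed an adjusted p of 0.05 (7 had an unadjusted p under 0.05), where 0.341% of all genes passed. With the block 1 member, Calr, passed (15 had an unadjusted p under 0.05), where 2.91% of all genes passed, so the members' share was near the background. Within replicate 2 alone, without WT replicate 1, the median of the members was 0.26. The authors' deposited table, which tested each knockout against WT, called 9 members higher and 0 lower in Nfkb2-KO, beside 6.22% of its genes called in either direction.

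Calr encodes calreticulin, which binds sugar chains of newly made glycoproteins and stores calcium in the ER. Its log2 expression was 14.28 and 14.29 in WT replicates 1 and 2, 14.24 and 14.25 in RelB-KO, 14.71 and 14.77 in Nfkb2-KO, and 14.41 and 14.58 in DKO. Both Nfkb2-KO libraries lay above all others, and the DKO libraries lay between them and the WT and RelB-KO ones. The difference from WT was 0.45 ± 0.08 (SE with the block; 95% interval 0.27 to 0.64), a 1.37-fold higher level. Its adjusted p was 0.207 without and 0.0267 with the block (limma), and 3.58e-06 in the authors' deposited table. The replicate 2 pair alone, free of WT replicate 1, differed by 0.48. The Calr gene lies at chr8:84841850-84846934 on the minus strand. With the block, however, the call was lost when any of the 4 WT and Nfkb2-KO libraries was left out, with 0 members called each time.

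Pdia6, a disulfide isomerase that binds BiP, stood at 12.31 and 12.23 in WT, 12.24 and 12.22 in RelB-KO, 12.64 and 12.60 in Nfkb2-KO, and 12.47 and 12.64 in DKO. All 4 libraries without Nfkb2 were above all 4 libraries with it. The Nfkb2-KO difference from WT was 0.35 ± 0.08 (SE; 0.36 within replicate 2), with an adjusted p of 0.241 without and 0.0598 with the block. Atp6v1c2 overlaps Pdia6 on the opposite strand, and whether counting used strand is not stated.

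Hspa5 holds unfolded chains and keeps the ER sensors inactive until such chains accumulate. It was at 14.21 and 14.10 in WT, 14.15 and 14.11 in RelB-KO, 14.48 and 14.52 in Nfkb2-KO, and 14.25 and 14.37 in DKO. The Nfkb2-KO libraries were the highest pair, and the lower DKO library was 0.04 above the higher WT one. The difference from WT was 0.34 ± 0.09 (SE; 0.42 within replicate 2), with an adjusted p of 0.287 without and 0.075 with the block.

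Hsp90b1, the ER Hsp90 known as GRP94, was at 13.84 and 13.78 in WT, 13.86 and 13.80 in RelB-KO, 14.17 and 14.16 in Nfkb2-KO, and 14.03 and 14.17 in DKO. As for Pdia6, the libraries with and without Nfkb2 did not overlap. Its difference of 0.36 ± 0.08 (SE; 0.38 within replicate 2) from WT had an adjusted p of 0.257 without and 0.0587 with the block. Of these 3 genes, the authors' deposited table gave Hsp90b1 an adjusted p of 0.00145, Hspa5 0.0041 and Pdia6 0.00653, all higher in Nfkb2-KO.

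**Figure D2:**
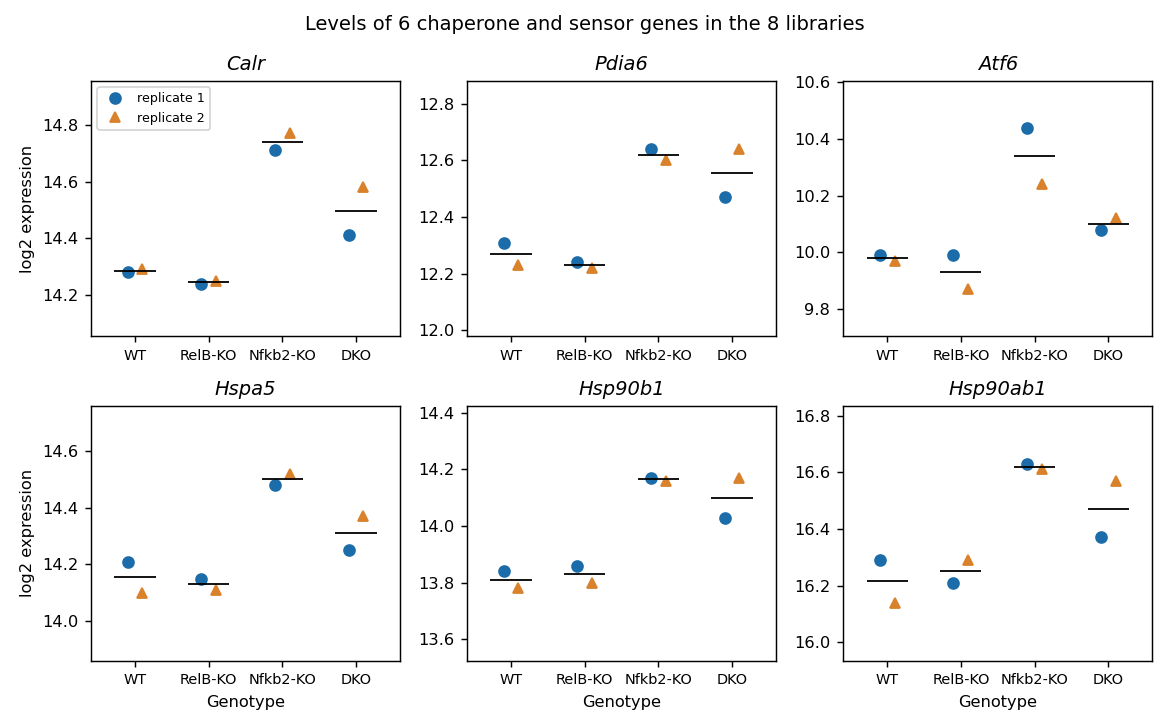
Deposited log2 expression (vertical axes, each panel with its own range) of 6 genes in the 8 libraries by genotype; circles are replicate 1, triangles replicate 2, and lines the group means. Nfkb2-KO points lie above the WT and RelB-KO points in every panel, and the DKO points lie in between or level with them.

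The other 10 ER chaperones, isomerases and co-chaperones gave smaller values, and none passed in either model. In simulated data, 0 of 50 planted differences of 0.25 passed in either model, so values of this size could hardly pass. Pdia3, the isomerase that works with calreticulin and calnexin, differed from WT by 0.24 and was called higher in Nfkb2-KO by the authors' deposited table (adjusted p 0.0345). Creld2, an ER-stress-inducible isomerase-like protein, differed by 0.29, the BiP co-chaperone Dnajb11 by 0.25, the secreted ER stress factor Manf by 0.24 and the large ER Hsp70 relative Hyou1 by 0.22. Both Nfkb2-KO libraries lay above both WT libraries for all of these, a separation not counted over all genes. Within replicate 2 the differences were 0.29 in Pdia3, 0.31 in Creld2, 0.35 in Dnajb11, 0.27 in Manf and 0.28 in Hyou1. Dnajc3, a BiP co-chaperone, gave 0.16, the lectin chaperone Canx 0.14, the isomerase Pdia4 0.10 and Sdf2l1, which works with Dnajb11, 0.10. Within replicate 2 these were 0.09, 0.21, 0.08 and 0.12. Dnajb9, a BiP co-chaperone that holds back IRE1, differed by -0.03 (0.02 within replicate 2), and its libraries overlapped. Across the 14 genes, 13 were positive and 13 were higher in both pairs, with a median of 0.24 (0.28 within replicate 2).

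Among the sensors and factors, Atf6 stood out. It was at 9.99 and 9.97 in WT, 9.99 and 9.87 in RelB-KO, 10.44 and 10.24 in Nfkb2-KO, and 10.08 and 10.12 in DKO. The Nfkb2-KO libraries were highest but differed from each other by 0.20. The difference from WT was 0.36 ± 0.08 (SE; 0.27 within replicate 2), with an adjusted p of 0.248 without and 0.0543 with the block. The authors' deposited table gave Atf6 an adjusted p of 0.0159. Xbp1 total mRNA lay between 12.14 and 12.30 in all 8 libraries and differed by 0.08 (0.11 within replicate 2), and its spliced form is not separated in a table of gene totals. Ern1 differed by -0.04 (-0.11 within replicate 2) and was highest in RelB-KO replicate 1, at 9.03 against 8.37 to 8.80 in the other 7 libraries.

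The 4 members of ER-associated degradation did not share the pattern of the folding genes. Herpud1, a stress-inducible organiser of the degradation complex, differed from WT in Nfkb2-KO by 0.03, and Edem1, which picks out misfolded glycoproteins, by 0.00. Sel1l, the adaptor of the ubiquitin ligase, differed by 0.02, and Syvn1, the ligase itself, by -0.02. Within replicate 2 the 4 values were 0.08, -0.06, 0.02 and -0.06. The median of the 4 was 0.01 in Nfkb2-KO, 0.04 in RelB-KO and -0.03 in DKO, and the Nfkb2-KO and WT libraries overlapped for each of them. None passed in either model, and the difference between folding and degradation genes was not itself tested.

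Set by promoter, the 8 ER members with the full ER stress element had a median difference from WT of 0.32 in Nfkb2-KO, -0.02 in RelB-KO and 0.25 in DKO. The 10 ER members whose searched promoter lacked it had medians of 0.05, 0.02 and 0.12. Within replicate 2 the medians were 0.34, -0.03 and 0.33 with the element and 0.08, 0.01 and 0.10 without it. The first set held Calr, Pdia6, Hsp90b1 and Hspa5 but also Syvn1, whose Nfkb2-KO difference was -0.02. Apart from Syvn1, the first set held folding genes only. The second held the degradation genes Herpud1, Edem1 and Sel1l, and Xbp1 and Ern1, as well as folding genes such as Pdia3 and Dnajb11. Manf, Hyou1 and Atf6 were in neither set, as no promoter was found for them. The sets thus differed in role as well as in the element, and the 2 cannot be told apart here. No test was made between the sets, which were formed after the expression values were known.

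**Figure D3:**
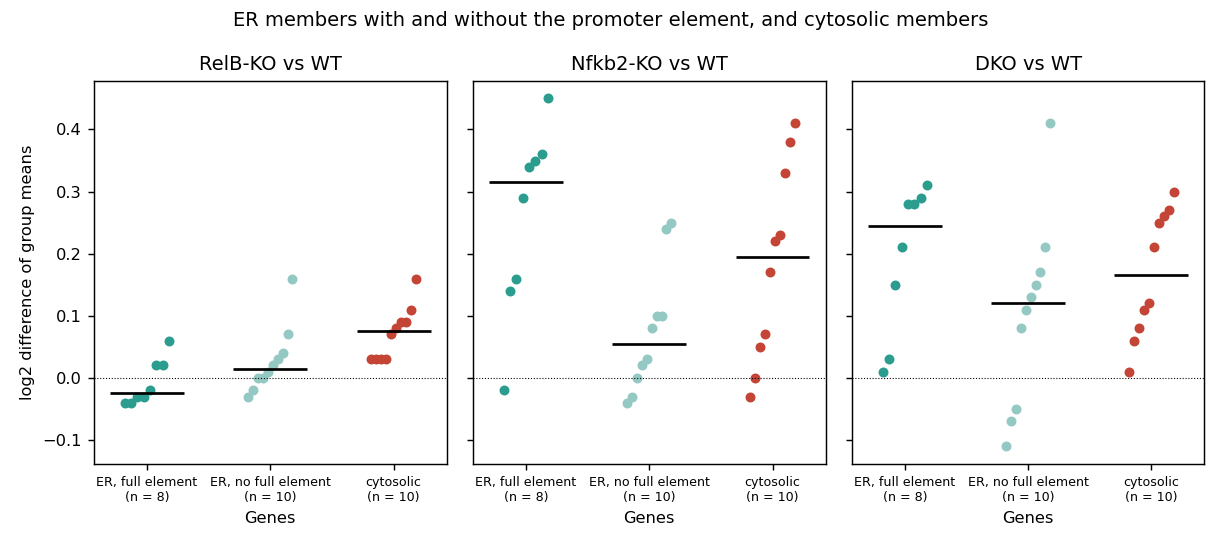
Log2 difference of group means (vertical axis) for each gene (points) in each knockout against WT, for ER members with the full ER stress element, ER members whose promoter lacks it, and cytosolic members (whether or not a promoter was searched); lines are medians. In the Nfkb2-KO panel the medians are 0.32, 0.05 and 0.19, and in the RelB-KO panel they are -0.02, 0.02 and 0.08.

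The cytosolic chaperones had a median difference from WT of 0.19 in Nfkb2-KO, beside 0.16 for the 21 ER members, with 8 of 10 positive and 7 of 10 higher in both pairs. Within replicate 2 alone the medians were 0.27 and 0.21. The cytosolic median was 0.02 without WT replicate 1 and 0.07 without Nfkb2-KO replicate 2, where replicate numbers are unbalanced between the groups. Hsp90ab1 was at 16.29 and 16.14 in WT, 16.21 and 16.29 in RelB-KO, 16.63 and 16.61 in Nfkb2-KO, and 16.37 and 16.57 in DKO. Both Nfkb2-KO libraries were above all others, and the DKO libraries were above the WT and RelB-KO ones. Its difference of 0.41 ± 0.11 (SE; 0.48 within replicate 2) from WT had an adjusted p of 0.382 without and 0.0972 with the block. Hsph1, a nucleotide exchange factor for Hsp70, differed by 0.23 and its relative Hspa4 by 0.22 (0.29 and 0.30 within replicate 2), and in both genes the Nfkb2-KO libraries lay above the WT ones.

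Genes known to be induced by HSF1 in a heat shock were not alike. Hspa1a differed from WT in Nfkb2-KO by 0.00, Hspa1b by -0.03, the Hsp40 gene Dnajb1 by 0.05 and the Hsp70 co-chaperone Bag3 by 0.07, and their libraries overlapped. Within replicate 2 these differences were 0.00, -0.14, 0.09 and -0.09. Other heat-inducible members had larger differences that did not pass: 0.23 in Hsph1, 0.33 in Hsp90aa1, 0.26 in Hspd1 and 0.29 in Hspe1. Hspa1a lay between 4.06 and 4.43 and Hspa1b between 5.18 and 5.68 in all libraries. They are near-identical copies of each other, so reads may have been split between them. The deposited values of some very weak genes were nearly flat across libraries (Cd8a at 0.87 to 0.92), so differences in weak genes may be understated. Hspa1a and Hspa1b were less flat than that. The authors' deposited table gave Hspa1a a log2 fold change of 0.14 in RelB-KO, where the deposited levels differed by 0.09. In Nfkb2-KO that table gave Hspa1b -0.05, where the levels gave -0.03, and both put Hspa1a at 0.00. Hsf1 itself lay between 10.73 and 10.91, with a difference of 0.08 (0.18 within replicate 2).

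In Hspa8, Hsp90aa1, Dnaja1 and Hspd1 libraries differed more by replicate number, on average, than by genotype. Hspa8 was at 13.81 and 15.01 in WT, 13.80 and 15.23 in RelB-KO, 14.06 and 15.52 in Nfkb2-KO, and 13.91 and 15.52 in DKO. Every replicate 2 library was above every replicate 1 library, by 1.43 on average, while the Nfkb2-KO difference from WT was 0.25 in replicate 1 and 0.50 in replicate 2. Hsp90aa1, the inducible cytosolic Hsp90, ran from 12.27 to 12.54 in replicate 1 and from 13.30 to 13.72 in replicate 2. With the block, the Nfkb2-KO difference of Hspa8 was 0.38 ± 0.10 (adjusted p 0.1; 0.944 without the block) and that of Hsp90aa1 was 0.33 ± 0.09 (0.0885; 0.938 without; 0.41 within replicate 2). The authors' deposited table called both higher in Nfkb2-KO, with adjusted p of 0.0106 for Hspa8 and 0.0169 for Hsp90aa1, and Hsp90ab1 too, at 0.0021. Dnaja1, an Hsp40 partner of Hspa8, differed by 0.17 from WT (0.25 within replicate 2) and by 1.23 between replicate numbers.

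These 4 genes were the only members whose replicates differed by more than 0.5 on average, and each has near-identical copies elsewhere in the genome. In the GENCODE M21 annotation, 10 other genes, 9 of them pseudogenes, match at least 50% of the Hspa8 coding sequence at 90% identity or more. Hspd1 has 4 such copies, Dnaja1 has 3 and Hsp90aa1 has 2, all pseudogenes. Of the 34 members 9 have a copy: Hspe1, with 5, differed by 0.33 between replicates, while Hsp90ab1 and Dnajb9, with 1 each, differed by 0.03 and -0.11. The other 30 members differed by between -0.32 and 0.37, and 3.85% of all genes tested differed by more than 0.5 in size. How reads that match several copies were counted is not stated, and the part of the copies in the replicate difference was not tested.

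**Figure D4:**
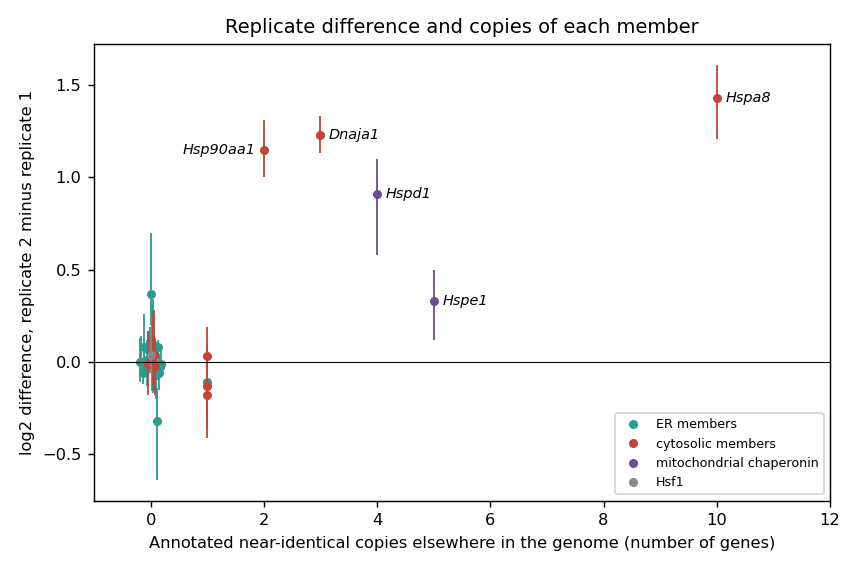
Difference of replicate 2 from replicate 1 in log2 units (vertical axis; points are means over the 4 genotypes, lines run from the lowest to the highest genotype) against the number of annotated near-identical copies of each member. Hspa8, Dnaja1, Hsp90aa1 and Hspd1 lie between 0.91 and 1.43, and the members without a copy lie between -0.32 and 0.37.

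The mitochondrial chaperonin is made of Hspd1 (Hsp60) and its lid Hspe1 (Hsp10), which share a promoter region. Hspd1 was at 12.73 and 13.31 in WT, 12.59 and 13.57 in RelB-KO, 12.80 and 13.76 in Nfkb2-KO, and 12.78 and 13.89 in DKO. Its Nfkb2-KO difference from WT was 0.06 in replicate 1 and 0.45 in replicate 2, so that the average of 0.26 rests mainly on replicate 2. Hspe1 differed by 0.18 and 0.39 in the same pairs. Neither passed in either model, with adjusted p with the block of 0.285 for Hspd1 and 0.148 for Hspe1.

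The comparison of Nfkb2-KO with RelB-KO uses no WT library and thus not the one that stood apart. Here 27 of 34 members were positive, with a median of 0.13, and 23 (67.6%) were higher in both pairs, beside 32.8% of all genes tested. Without the block 0 members passed (10 had an unadjusted p under 0.05; 0.797% of all genes passed). With the block 3 passed, all higher in Nfkb2-KO (13 had an unadjusted p under 0.05; 4.46% of all genes passed). Calr rose by 0.49 ± 0.08 (SE), a 1.41-fold higher level, with an adjusted p of 0.0132 with and 0.12 without the block. Atf6 rose by 0.42 ± 0.08 (SE), with an adjusted p of 0.0254 with and 0.142 without the block. Pdia6 rose by 0.39 ± 0.08 (SE), with an adjusted p of 0.0326 with and 0.147 without the block. These calls, too, depend on each library: with the block, leaving out any RelB-KO or Nfkb2-KO library left 0 members called. Leaving out either WT library, which bears on the spread only, left 4 called, Hspa5 in addition. All 14 ER folding genes had differences of 0.00 or above, with a median of 0.24, and Hspa5 reached 0.36 with an adjusted p of 0.0519 with the block.

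Loss of RelB alone gave no comparable values. Against WT, 22 of 34 members were positive with a median of 0.03 (0.02 within replicate 2), and 9 (26.5%) were higher in both pairs, beside 22.4% of all genes tested. No member passed without the block, where 0.00725% of all genes passed, or with it, where 0.0145% passed, and 0 had an unadjusted p under 0.05 in either model. The authors' deposited table called 0 members in RelB-KO, beside 0.119% of its genes. Calr differed from WT by -0.04 (-0.04 within replicate 2; 95% interval with the block -0.23 to 0.15), so a rise of the size seen in Nfkb2-KO lies outside that interval. The 14 ER folding genes ran from -0.09 in Manf to 0.06 in Canx, and within replicate 2 from -0.22 to 0.11 in the same genes. All 10 cytosolic members were positive but small, with a median of 0.08 (also 0.08 within replicate 2), and 3 were higher in both pairs. The highest values in RelB-KO were 0.16 in Ern1 and in Hspa1b, both above WT in replicate 1 and below it in replicate 2.

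With both genes removed, the members were again mostly above WT, and unevenly between replicates. In DKO 31 of 34 members were positive, with a median of 0.16, and 27 (79.4%) were higher in both pairs, beside 29.8% of all genes tested. The median difference was 0.07 in replicate 1 and 0.27 in replicate 2, and for the ER folding genes 0.12 and 0.35. No member passed without the block (6 had an unadjusted p under 0.05; 0.0145% of all genes passed) or with it (15 had an unadjusted p under 0.05; 0.0652% passed). The authors' deposited table called 0 members in DKO, beside 1.23% of its genes, with its lowest adjusted p among them at 0.0519 for Hsp90b1. The highest DKO difference was in Sdf2l1, at 9.61 and 9.82 in WT, 9.54 and 9.88 in RelB-KO, 9.69 and 9.94 in Nfkb2-KO, and 9.78 and 10.48 in DKO. Its average of 0.41 came from 0.17 in replicate 1 and 0.66 in replicate 2, and the DKO and WT libraries overlapped. Creld2 differed by 0.31, Hsp90b1 by 0.29, Pdia6 by 0.28, Canx by 0.28 and Hyou1 by 0.26. Within replicate 2 these were 0.49, 0.39, 0.41, 0.37 and 0.41. All of these DKO libraries lay above both WT libraries.

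Which genotype was highest also changed with the replicate. In replicate 1, 10 of the 14 ER folding genes were highest in Nfkb2-KO, 3 in DKO and 1 in RelB-KO. In replicate 2, 5 were highest in Nfkb2-KO and 9 in DKO. WT was highest for none of the 14 in either replicate.

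In DKO set directly against Nfkb2-KO, the members had differences in either direction. These 2 groups also differed in remaining Nfkb2 RNA, as given above. Of the 34 members 14 were positive, with a median of -0.03, and 6 (17.6%) were higher in DKO in both pairs, beside 28.6% of all genes tested. No member passed without the block (2 had an unadjusted p under 0.05; 0.768% of all genes passed) or with it (3 had an unadjusted p under 0.05; 5.02% passed). Atf6 was lower in DKO by 0.37 in replicate 1 and by 0.12 in replicate 2, with a mean difference of -0.25 ± 0.08 (SE) and an adjusted p of 0.152 with the block. Calr had a mean difference of -0.24 ± 0.08 (SE), with an adjusted p of 0.169 with the block and both DKO libraries below both Nfkb2-KO ones. Against RelB-KO, 27 members were higher in DKO on average, with a median of 0.16, and 22 (64.7%) in both pairs, beside 28.2% of all genes tested. None passed without the block (6 had an unadjusted p under 0.05; 0.00725% of all genes passed) or with it (11 had an unadjusted p under 0.05; 0.0145% passed).

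Whether the 2 deletions add up on the log2 scale was asked by the interaction, the effect of removing Relb in cells without Nfkb2 less its effect in cells with Nfkb2. No member passed without the block, where 0.00725% of all genes passed, or with it, where 0.471% passed, and 0 had an unadjusted p under 0.05 in either model. The interaction was -0.20 in Calr (95% interval with the block -0.47 to 0.06), -0.19 in Atf6 and 0.32 in Sdf2l1. With intervals of this width the test does not show that the effects add.

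Other genes of the same pathways, taken from lists of ER folding, secretion and degradation genes and of heat shock genes, also had medians above 0 in Nfkb2-KO. Of 47 other ER genes tested 38 were positive against WT, with a median of 0.11, and 0 passed in either model. Of 40 other heat shock genes and co-chaperones 32 were positive, with a median of 0.16. Within replicate 2 alone the medians were 0.13 and 0.20. Among the heat shock genes 1 of 40 passed with the block, Hsf2, a relative of Hsf1, a share near the 2.91% of all genes. Hsf2 was at 10.26 and 10.07 in WT, 10.19 and 10.03 in RelB-KO, 10.76 and 10.59 in Nfkb2-KO, and 10.19 and 9.84 in DKO. It was 0.51 above WT (adjusted p 0.0106 with, 0.283 without the block) and 0.57 above RelB-KO (0.00473 with, 0.194 without), and in DKO it was lower than in Nfkb2-KO, with a difference of -0.66 (0.00219 with, 0.126 without). In DKO, Hsf2 differed from WT by -0.15, where the ER folding genes had a median of 0.22.

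Ube2j1, the ubiquitin-conjugating enzyme of the ER membrane, had a similar profile: it was at 11.60 in both WT libraries and at 11.92 and 11.89 in Nfkb2-KO, and at 11.55 and 11.60 in DKO. It was 0.30 above WT (adjusted p 0.0605 with, 0.232 without the block). Of 46 other ER genes with an adjusted p, the authors' deposited table called it alone higher in Nfkb2-KO, beside 6.22% of all its genes. With the block Ube2j1 was 0.32 above RelB-KO (adjusted p 0.0433) and its DKO difference from Nfkb2-KO was -0.33 (adjusted p 0.0346), and neither passed without the block. Bag2, an Hsp70 co-chaperone, was 0.50 higher in DKO than in Nfkb2-KO (adjusted p 0.0264 with, 0.238 without the block). By size alone in Nfkb2-KO against RelB-KO, Tcp1, a subunit of the cytosolic chaperonin, gave 0.35 and the Creld2 relative Creld1 0.33. The lowest differences were -0.20 in the small heat shock gene Hspb1, -0.16 in the testis-enriched Hspa2, and -0.10 in both Fkbp11 and Pdia5.

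Some values outside these pathways moved with the Nfkb2-KO group. Plasma cells are rich in ER chaperones, and of 7 of their markers 5 were measured (Igkc and Ighg1 were not found by name). The log2 of their summed un-logged level was 8.16 to 8.37 in Nfkb2-KO, lower than 8.48 to 8.63 in WT, 8.54 to 8.62 in RelB-KO and 8.54 to 8.65 in DKO. The defining markers were low, with Igj at 2.86 to 3.05 and Tnfrsf17 below the filter in all libraries. Of 7 B cell markers 5 were measured, with Pax5 listed at 0 and Ighm not found by name. Their sum was 7.28 to 7.50 in WT, 7.36 to 7.75 in RelB-KO, 7.64 to 7.72 in Nfkb2-KO and 7.77 to 7.84 in DKO. It was thus higher than WT in both groups without Nfkb2, and also in RelB-KO replicate 1 (7.75). It consisted mostly of Cd79b, at 7.09 and 7.35 in WT, 7.61 and 7.19 in RelB-KO, 7.58 and 7.50 in Nfkb2-KO, and 7.63 and 7.72 in DKO. Of 8 immediate-early genes, which respond within minutes to signalling or handling, all were measured, and their sum was 15.01 in both Nfkb2-KO libraries. It was 14.69 to 14.73 in WT, 14.63 to 14.65 in RelB-KO and 14.59 to 14.70 in DKO. The sum is carried by the abundant Junb and Egr1, and the genes did not move as one: the median difference from WT was 0.10, with 4 of 8 higher and 3 of 8 lower in Nfkb2-KO in both pairs. The lowest difference was -0.26, in Fosb, with -0.18 in Fos and -0.10 in Dusp1. Jun differed from WT by 0.81 in Nfkb2-KO (adjusted p 0.0323 with, 0.232 without the block) and Junb by 0.43 (0.0393 with, 0.395 without). Atf3 differed from WT by 0.51 in Nfkb2-KO (0.0525 with, 0.267 without). Its DKO difference from Nfkb2-KO was -0.84 (0.00483 with, 0.0617 without). The part of these marker and immediate-early genes in the chaperone differences was not tested. In such bulk RNA, more cells with a high level and more RNA per cell cannot be told apart.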

How the data were processed

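Total RNA from 8 sorted and cultured Treg samples was made into TruSeq libraries. Per the submitters' processing notes, STAR, DESeq2 1.10.1 and build mm10 were used; the counting program, strand setting and batch method are not given in the sources used here. The authors deposited log2 values per gene and library, batch corrected per the file header, together with p-values (raw and adjusted) and log2 fold changes, 1 set per knockout against WT. Their 8 z-score columns were not used.

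Of 22432 genes, 6247 were listed at 0 in all libraries and 1 lacked a value. Testing was done on the 13797 genes whose un-logged values averaged 1 or more. limma 3.58.1 (R 4.3.3) was fitted to the deposited log2 values of all 8 libraries with the 4 genotypes, a variance trend and empirical Bayes moderation. Calls needed an adjusted p (Benjamini-Hochberg, over all genes tested, per contrast) under 0.05. Same-numbered libraries of different genotypes deviated together (correlations of 0.81 to 0.89 in 6 genotype pairs), so replicate number was also fitted as a block. The scripts were tested on simulated data. There, 0 of 50 planted differences of 0.25 in Nfkb2-KO against WT passed in either model. Of 50 planted differences of 0.5, 12% passed without the block and 50% with it. Members that did not pass are therefore not shown to be unchanged. Genes of the other lists are named if called in either model; as fewer than 4 were, the 2 highest and 2 lowest of each list in Nfkb2-KO against RelB-KO are given too. Every member is named.

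Copies were sought with blastn 2.17.0 among GENCODE M21 transcripts. Promoters came from RefSeq on GRCm38.p6 and matched 27 of 34 members. The members and lists were chosen with earlier results of these data known. Alternatives were quantile normalization, a pseudocount of 1, no filter, no variance trend, the block, and leaving out each library.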

Additional observations from a re-analysis of the deposited data

How the results depend on the processing

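Without the replicate block, 0 members were called in each of the 7 contrasts under quantile normalization, a pseudocount of 1, no filter, no variance trend and leaving out each library. The replicate block gave 1 call for Nfkb2-KO against WT and 3 for Nfkb2-KO against RelB-KO, and changed no other member's call. Leaving out 1 library with the block, an alternative chosen after seeing the data, gave 0 to 2 calls for Nfkb2-KO against WT, 0 to 4 for Nfkb2-KO against RelB-KO and 0 to 1 for DKO against Nfkb2-KO (Sdf2l1, without DKO replicate 1).

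Quantile normalization gave medians of 0.12 for the ER members in Nfkb2-KO against WT (0.16 as deposited) and 0.06 for the cytosolic members in Nfkb2-KO against RelB-KO (0.11), and a Calr difference from WT of 0.30 (0.45). Leaving out 1 library at a time without the block, the ER median ran from 0.14 to 0.22 in Nfkb2-KO against WT, from -0.04 to 0.01 in RelB-KO against WT, from 0.09 to 0.18 in DKO against WT, from -0.11 to 0.02 in DKO against Nfkb2-KO, from 0.11 to 0.22 in DKO against RelB-KO and from 0.14 to 0.20 in Nfkb2-KO against RelB-KO. The cytosolic median ran from 0.02 to 0.21 in Nfkb2-KO against WT (0.02 without WT replicate 1, 0.07 without Nfkb2-KO replicate 2), from 0.06 to 0.12 in RelB-KO against WT, from 0.00 (without DKO replicate 2) to 0.30 (without DKO replicate 1) in DKO against WT, from -0.12 to 0.15 in DKO against Nfkb2-KO, from -0.10 to 0.24 in DKO against RelB-KO and from -0.03 to 0.17 in Nfkb2-KO against RelB-KO. A library left out unbalances the replicate numbers, which by construction moves the cytosolic members that differ by replicate. Depth is unknown, and 2 libraries per group limit the tests.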

Other observations

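The subunits of TRiC, the chaperonin that folds actin and tubulin in the cytosol, were singled out among the other heat shock genes after their values were seen. In both replicate-matched pairs, all 7 subunits listed exceeded WT in Nfkb2-KO, with log2 differences between 0.26 and 0.37 and a median of 0.31, and none passed in either model. Of all genes tested 34.4% were higher in both pairs. The authors' deposited table called 5 of the 7 higher in Nfkb2-KO, namely Cct3, Cct5, Cct7, Cct8 and Tcp1, and called 0 of them in RelB-KO or DKO. Over all its genes the table called 6.22% in Nfkb2-KO, and a group picked after its values were seen is no evidence of its own direction. Their median difference from WT was 0.05 in RelB-KO and 0.24 in DKO, the latter with 0.10 in replicate 1 and 0.42 in replicate 2. The same table also called St13 and Stip1, co-chaperones that link Hsp70 and Hsp90, higher in Nfkb2-KO, and Rpn1, a subunit of the ER enzyme that attaches sugar chains, higher in DKO.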
